A study of Mus musculus with 31 samples.

Results

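Chemokine ligand genes were studied as the 44 of 39179 gene identifiers in the deposited counts whose symbol begins with *Ccl*, *Cxcl*, *Xcl* or *Cx3cl* followed by a number. They carry 41 symbols, since *Ccl21c* has 3 identifiers and *Ccl25* has 2. The names select ligands only, so the receptors, and the ligands *Ppbp* and *Pf4* whose symbols follow another pattern, stand outside the list. Chemokines are small secreted or membrane-bound proteins that direct the migration of leukocytes by binding to G protein-coupled receptors, and each receptor is carried by particular leukocyte types. In tumors, ligands can be made by cancer cells, fibroblasts, endothelium, keratinocytes and the leukocytes themselves. Glucocorticoids (GCs) bind the glucocorticoid receptor (GR), a nuclear receptor encoded by *Nr3c1*, and are known to repress many inflammatory genes that depend on NF-κB.

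The study sequenced RNA from 20 tumors and 11 cultures of the mouse melanoma line 20967. Mice were wild-type C57BL/6 and carried either the parental line or GR KO cells, a single clone obtained by CRISPR ribonucleoprotein editing of *Nr3c1*, so host cells in all tumors kept an unedited GR. The 4 tumor groups of 5 mice each were parental tumors under a control cream (cetraben), parental tumors under clobetasol propionate 0.05% ointment 3 times weekly as the GC, and GR KO tumors under either treatment. The 4 culture groups were parental cells in DMSO (3 cultures), parental cells in clobetasol propionate (2 cultures), and GR KO cells in DMSO or clobetasol propionate (3 cultures each); the treatment label gives a GC dose of 10 µM and the library names give 1 µM. The cultures hold cancer cells without host cells, and they are used here to tell which ligand transcripts the cancer cells carried outside the animal. Nothing in the labels says whether cultures of a group were grown separately, so their p-values measure the spread between these samples, which may be technical.

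Reads came from the 3′ ends of transcripts, and a count is a number of such reads assigned to a gene. Totals ran from 15528066 to 26386770 counts per tumor and from 14441166 to 22463188 per culture. Levels are counts per 1000000 (CPM) scaled with edgeR's TMM factors over all 31 libraries together, and since a 3′ read does not depend on transcript length, levels were compared between genes without a length correction. Where a gene was at 0 in a group, a floor of 3 counts summed over the group was used, which covers counting error only. Genes with at least 0.5 CPM in at least 3 libraries were tested, which left 15919 genes in tumors, 12525 in cultures and 16273 where tumors were set against cultures. A DEG had an adjusted p under 0.05 by edgeR's quasi-likelihood test, with Benjamini-Hochberg adjustment over all genes tested, and a fold change of at least 1.5. Exact permutation tests were 2-sided, on the mean of log2(CPM + 1), and the smallest p they allow for 5 tumors against 5 is 0.00794.

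The edited gene was read first. *Nr3c1* was at 62.8, 57.6, 43.9, 55.9 and 50.5 CPM in the parental control tumors (numbered 1 to 5 in this order, as in all value lists) and 20.3, 26.7, 31.2, 33.6 and 23.4 CPM in the GR KO control tumors. The 2 groups did not overlap, and *Nr3c1* was lower in GR KO control tumors (log2 fold change -1.02 with an SE of 0.24, adjusted p = 0.0313 by edgeR). This call was lost without any 1 of parental control tumors 1 to 5 (adjusted p = 0.0662, 0.0673, 0.0609, 0.0712 and 0.0524 by edgeR) or GR KO control tumors 1, 2 and 5 (adjusted p = 0.0860, 0.0771 and 0.0632 by edgeR). Under GC it was at 54.2, 23.5, 48.4, 36.4 and 49.6 CPM in parental and 47.3, 21.4, 57.7, 31.7 and 46.9 CPM in GR KO tumors, and these groups overlapped. In DMSO cultures *Nr3c1* stood at 33.9, 30.6 and 36.3 CPM in parental and 25.8, 21.6 and 16.6 CPM in GR KO cells (log2 fold change -0.67 with an SE of 0.22, adjusted p = 0.0840 by edgeR, and 0.0390 by DESeq2), and in GC cultures at 40.6 and 34.2 CPM and 21.4, 22.4 and 12.9 CPM. The transcript was still counted in every GR KO library. Reads from the 3′ end do not show an edit elsewhere in the gene, so its level checks neither the knockout nor the labels.

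The GC-induced gene *Tsc22d3* served as a control of the treatments. It was at 14.8, 10.8 and 15.7 CPM in parental DMSO cultures and 119.6 and 116 CPM with GC, against 16.6, 18.7 and 19.8 CPM and 21.1, 14.4 and 16.8 CPM in GR KO cultures. *Tsc22d3* rose with GC in parental cultures (log2 fold change 3.09 with an SE of 0.20, adjusted p = 2.3e-05 by edgeR), and the rise differed between genotypes (difference of log2 fold changes 3.14 with an SE of 0.27, adjusted p = 0.000332 by edgeR). In tumors *Tsc22d3* was at 87.6, 42.5, 70.8, 87.7 and 66.5 CPM in parental control, 461, 174, 374, 338 and 458 CPM in GC-treated parental, 59.9, 44.4, 70.9, 94.1 and 61.8 CPM in GR KO control and 247, 244, 205, 166 and 237 CPM in GC-treated GR KO tumors. It rose with GC in both genotypes, by 2.34 on the log2 scale in parental (adjusted p = 1.6e-05 by edgeR) and by 1.77 in GR KO tumors (adjusted p = 0.000403 by edgeR). Of the 3 GC-induced control genes (*Tsc22d3*, *Per1* and *Fkbp5*), all 3 rose in parental cultures, 0 in GR KO cultures, 2 in parental tumors and 3 in GR KO tumors.

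The melanoma label was checked against 6 melanocyte-lineage genes. *Dct*, *Mlana*, *Sox10* and *Tyr* were at 0 in all 11 cultures and *Tyr* also in all 20 tumors, and *Mitf* was the most abundant of the 6, at a mean of 7.35 CPM in cultures. Only *Mitf* and *Pmel* had counts in cultures, so these genes do not settle the identity of the line. Melanoma is the name in the labels, and the study states that the line comes from a C57BL/6 *Nras* model with inducible Cre under the *Tyr* promoter. The gene *Gm26924* took 11.6, 8.97, 6.57, 0.248 and 16.3% of all counts in the 5 GR KO control tumors, compared with 5.55, 1.76, 1.24, 1.70 and 0.439% in the parental control tumors, 1.60, 2.78, 1.25, 1.67 and 0.700% in the GC-treated parental tumors and 0.800, 2.89, 0.959, 6.65 and 1.48% in the GC-treated GR KO tumors. Genes with at least 1 count numbered 13442, 14887, 15150, 16980 and 14335 in the GR KO control tumors. GC-treated GR KO tumor 4 had a larger *Gm26924* share than GR KO control tumor 3. GR KO control tumor 4 had the lowest *Gm26924* share and the most genes of its group, and the other 4 had shares from 6.57% to 16.3% and fewer genes. By a gap rule (Dixon's), 384, 202, 219, 643 and 194 of 15919 genes lay far from the other 4 tumors in GR KO control tumors 1 to 5, 91, 203, 129, 506 and 156 in GC-treated GR KO, 233, 181, 138, 146 and 216 in parental control and 103, 499, 105, 321 and 75 in GC-treated parental tumors. GC-treated parental tumors 2 and 4 had more such genes than the other 3 of their group. They were the 2 lowest of it for *Cxcl10*, *Ccl7*, *Ccl2*, *Cxcl14*, *Cx3cl1* and *Cxcl13*, and the 2 highest for *Cxcl16*. Tumor 4 was also the highest for *Ccl5* and *Ccl22*, and tumor 2 for *Ccl8*. These ligands are examples without a share over all genes, and nothing is read from them. Every ligand comparison that uses GR KO control tumors rests on these libraries, and values without tumor 4 stand beside the calls that it changes. With *Gm26924* left out of the table, a setting chosen after seeing the data, the number of ligand DEGs in each of the 5 tumor comparisons was the same.

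Of the 44 identifiers, 28 passed the filter in tumors and 10 in cultures. Those that failed in tumors were 10 at 0 in all 31 libraries (*Ccl19-ps3*, *Ccl21a*, *Ccl21b*, the 3 *Ccl21c* identifiers, *Ccl26*, *Ccl27b*, *Cxcl17* and *Cxcl3*) and 6 with few counts (*Ccl28*, *Ccl20*, *Ccl19-ps1*, *Cxcl15*, *Ccl19* and the second *Ccl25* identifier). *Ccl28* reached at most 28 counts in a tumor and *Ccl20* at most 4. Mean levels over the 20 tumors spanned 4 decades: 6 ligands were at 100 CPM or more, 8 between 10 and 100, 10 between 1 and 10, and 10 below 1 but above 0. The 6 with the highest means were *Ccl8* (658 CPM), *Cxcl16* (381 CPM), *Cxcl9* (315 CPM), *Ccl6* (216 CPM), *Ccl5* (114 CPM) and *Ccl9* (109 CPM). These means pool the 4 groups, and the order differs between them: *Cxcl9* was at 417 ± 111 and 318 ± 139.8 CPM and *Cxcl16* at 298 ± 76.4 and 262 ± 65.4 CPM (mean ± SD, n = 5) in GC-treated parental and GR KO tumors. The tested members passed in part because of the groups in which they were high, so counts over them describe these tumors only.

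The comparison with cultures set control tumors against DMSO cultures of the same line, to separate ligands that cultured cancer cells carried from those that they did not. The study describes different RNA extractions for tumors and, under qPCR, for cells. A difference of tumor from culture and a difference of extraction cannot be told apart here. In the parental line 25 of 28 ligands were higher in tumors, where 30.4% of all genes tested were called higher. In the GR KO line 24 were higher (34.2% of all genes) and 1 was lower (20.6% of all genes). Of the 28, 10 were at 0 in all cultures and 5 more had a few counts there, so these 15 entered the test through the tumors, and higher in tumors was the outcome open to them. The counts above are therefore a description of which ligands were tested, and nothing is read from them. Many of these ligand values involve a culture group at or near 0, where a fitted fold change is no measure of size. Only 13 of the 44 identifiers exceeded 3 counts in at least 2 cultures, and 10 exceeded 10 counts.

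A first class of ligands was at 0 in all 11 cultures: *Cxcl9*, *Ccl22*, *Cxcl13*, *Ccl1*, *Cxcl11*, *Ccl12*, *Ccl24*, *Xcl1*, *Cxcl2* and *Ccl11*. Against the floor of 3 counts over a culture group, *Cxcl9* was at least 4740.4-fold higher in parental and at least 4324-fold higher in GR KO control tumors than in their DMSO cultures. The same bound for *Ccl22* was at least 319-fold and at least 321-fold. A second class of 5 ligands, *Ccl8*, *Cxcl16*, *Ccl4*, *Cxcl5* and *Ccl3*, had a few counts in parental cultures and none in GR KO cultures. *Ccl8* had 13 counts over all 11 cultures and 254874 over the 20 tumors, and in GR KO control tumors it was at least 16551-fold above the culture floor. *Cxcl16* had 4 counts over the cultures and was at least 12056-fold above the floor in GR KO control tumors. Marker genes of host cells were read in the same cultures. All 5 T cell genes counted in tumors and all 3 NK cell, 3 mast cell and 2 lymphatic endothelial genes were at 0 in every culture. The leukocyte gene *Ptprc* was at 0 in the 5 parental cultures and at 0, 0.0490 and 0.546 CPM in DMSO and 0.468, 0.424 and 0 CPM in GC cultures of GR KO cells. No macrophage gene averaged more than 1.98 CPM. The fibroblast genes were all counted in cultures, with *Col3a1* at a mean of 123 CPM, so a count of them does not by itself mark host cells here. *Lum* and *Dcn* reached at most 0.133 and 2.06 CPM in a culture, and were at 70.9 and 158 CPM or more in every tumor. All endothelial and monocyte genes were counted in cultures too, with the highest means for *Kdr* (2.00 CPM) and *Ccr2* (0.566 CPM), as was the keratinocyte gene *Krt10* (1.92 CPM). Apart from the few counts in parental cultures, transcripts of the 15 ligands were seen only where host cells were present. Whether cancer cells in the animal also made them was not tested.

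The last class was present in cultured cancer cells of at least 1 line. *Cxcl12* was at 21.0, 18.3 and 22.1 CPM in parental and 14.6, 14.5 and 11.04 CPM in GR KO DMSO cultures, which is 27.2% and 15.7% of the mean of the matching control tumors. *Cx3cl1* was at 17.1, 6.02 and 15.8 CPM and 9.22, 9.17 and 5.41 CPM, or 29.1% and 64.9% of the tumor mean. With *Ccl9* these were the most abundant ligands in DMSO cultures, and both were counted in every culture. The culture level in the parental and in the GR KO line was 9.83% and 3.08% for *Ccl9*, 21.9% and 8.38% for *Ccl2*, 32.8% and 29.5% for *Cxcl1*, 5.48% and 0.897% for *Ccl7*, 3.25% and 0.208% for *Ccl5* and 1.20% and 0.400% for *Cxcl10* of the level in the matching control tumors. *Cxcl14* stood at 6.42% in the parental line and was at 0 in all 6 GR KO cultures. *Ccl25*, the gut and thymus ligand of Ccr9, was the exception to the tumor excess, with a culture level of 185% of the parental and 623% of the GR KO tumor level. It was at 3.56, 2.60 and 2.02 CPM in GR KO DMSO cultures and 0, 0, 0.474, 1.71 and 0 CPM in GR KO control tumors. It was lower in those tumors than in the cultures (log2 fold change -2.56 with an SE of 0.91, adjusted p = 0.0180 by edgeR), a call lost without GR KO DMSO culture 1 (adjusted p = 0.0582 by edgeR) and with only the groups compared in the fit (adjusted p = 0.154 by edgeR). An exon of *Ccl25* overlaps *Elavl1* on the opposite strand, so its reads are uncertain. *Ccl6*, *Ccl17* and *Ccl27a* passed the count of 3 in at least 2 cultures with mean levels below 1 CPM.

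The 3 parental ligands not called between tumors and cultures were *Ccl11*, *Ccl25* and *Cxcl1*, and the 3 GR KO ligands were *Ccl11*, *Cx3cl1* and *Cxcl1*. When single libraries were left out, 19 to 24 parental and 22 to 25 GR KO ligands were called. With all libraries 25 were called in each line, beside 46.7% of all genes in the parental and 54.8% in the GR KO line, in either direction. The shares of all genes in the left-out fits are not given, and nothing is read from these counts. Parental *Cx3cl1* was no longer called without control tumor 3 or 5 (adjusted p = 0.0600 and 0.0775 by edgeR) or DMSO culture 1, 2 or 3 (adjusted p = 0.0527, 0.147 and 0.0623 by edgeR). Parental *Ccl2* lost its call without control tumor 3, 4 or 5 (adjusted p = 0.0624, 0.0789 and 0.0819 by edgeR) or DMSO culture 1, 2 or 3 (adjusted p = 0.102, 0.129 and 0.0945 by edgeR). Parental *Ccl3* lost it without control tumor 5 (adjusted p = 0.0645 by edgeR) or DMSO culture 2 or 3 (adjusted p = 0.123 and 0.122 by edgeR). Since *Ccl3* entered the test through the tumors, nothing is read from its call or the loss of it.

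The calls of *Ccl24*, *Xcl1* and *Cxcl2*, all at 0 in cultures and low in tumors, depended on single libraries as well. Higher in tumors was the outcome open to these ligands, so nothing is read from their calls or the loss of them. *Ccl24* lost its parental call without control tumor 1, 2 or 4 (adjusted p = 0.0776, 0.0680 and 0.0549 by edgeR) or DMSO culture 1, 2 or 3 (adjusted p = 0.110, 0.114 and 0.114 by edgeR). *Xcl1* lost its parental call without DMSO culture 1, 2 or 3 (adjusted p = 0.0577, 0.0595 and 0.0599 by edgeR), and so did *Cxcl2* (adjusted p = 0.0569, 0.0589 and 0.0593 by edgeR). In the GR KO line *Xcl1* lost its call without control tumor 4 (adjusted p = 0.116 by edgeR) or DMSO culture 1, 2 or 3 (adjusted p = 0.0707, 0.0753 and 0.0689 by edgeR). *Ccl24* lost its GR KO call without the same libraries (adjusted p = 0.0765 without control tumor 4 and 0.0776, 0.0816 and 0.0755 without culture 1, 2 or 3, by edgeR).

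**Figure D1:**
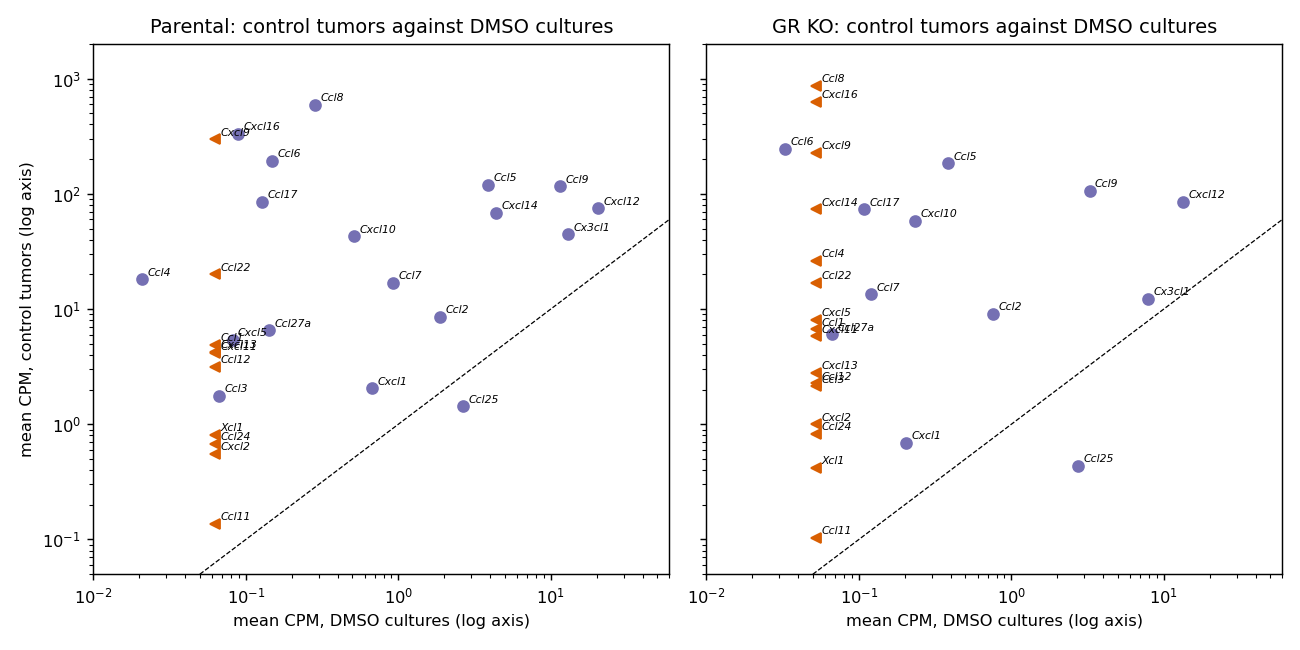
Mean CPM of the 28 tested ligands in control tumors (log axis) against DMSO cultures (log axis) of the parental and GR KO lines; triangles mark ligands at 0 in all cultures of the group, drawn at the floor of 3 counts over the group, and the dashed line marks equal levels. *Ccl25* lies on the culture side of the line in both panels, and *Cxcl9* and *Ccl22* are triangles in both panels.

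The next comparison asked how topical GC changed the ligands in parental tumors. *Ccl22*, *Ccl4* and *Cxcl5* fell, and no ligand rose. These 3 DEGs of 28 tested compare with 0.779% of all genes tested called in either direction and 0.345% called lower. The median log2 fold change was -0.66 over the 28 ligands and 0.00 over all genes, and 22 of the 28 values lay below 0. *Ccl22* and *Ccl4* were called with every library left out in turn, and *Cxcl5* was not. DESeq2 called *Ccl7* besides these 3, so 4 of 28 ligands beside 376 of 15919 genes.

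In GR KO tumors, where only host cells have an unedited GR, *Ccl22*, *Ccl4*, *Ccl5*, *Ccl8*, *Cxcl16* and *Cxcl5* fell and *Cxcl13* rose with GC. These 7 DEGs of 28 compare with 6.42% of all genes called, and the 6 lower stand beside 3.71% of all genes called lower, and the 1 higher beside 2.71% called higher. Medians were -0.35 for the ligands and 0.05 for all genes, with 17 of 28 ligand values below 0. Without GR KO control tumor 4 the count was 9, because *Ccl25* and *Cx3cl1* were added, while all DEGs went from 1022 to 2411. With only the groups compared in the fit, 5 ligands were called (*Cxcl13* and *Ccl8* were not) and 391 of 14928 genes. The ligand count was 4 without GC-treated GR KO tumor 3 and 4 without tumor 5, where all genes called numbered 303 and 393. *Ccl22* and *Ccl4* were called in both genotypes with every library left out in turn.

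Whether the GC response differed between genotypes was tested directly as the difference of the 2 log2 fold changes. By edgeR no ligand passed (0 of 28, beside 0.195% of all genes), with 6 ligands at an unadjusted p under 0.05 (20.1% of all genes); DESeq2 called 2, *Ccl8* and *Cxcl16*, beside 4.92% of all genes. Comparing genotypes under control cream, *Cxcl16* was the 1 DEG of 28 by edgeR (2.25% of all genes), and DESeq2 called 2, *Cxcl16* and *Cx3cl1* (6.29% of all genes). Without GR KO control tumor 4 edgeR called 3, *Ccl25*, *Cx3cl1* and *Cxcl16*, with 1762 genes in place of 358. Between GC-treated tumors edgeR called 0 of 28 ligands (0.634% of all genes) with 6 at an unadjusted p under 0.05 (11.4% of all genes), and DESeq2 called *Ccl8* and *Cxcl10* (1.84% of all genes). These comparisons share tumors, so they are given side by side. In whole tumors, fewer cells of a type and less RNA per cell cannot be told apart in any of them.

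**Figure D2:**
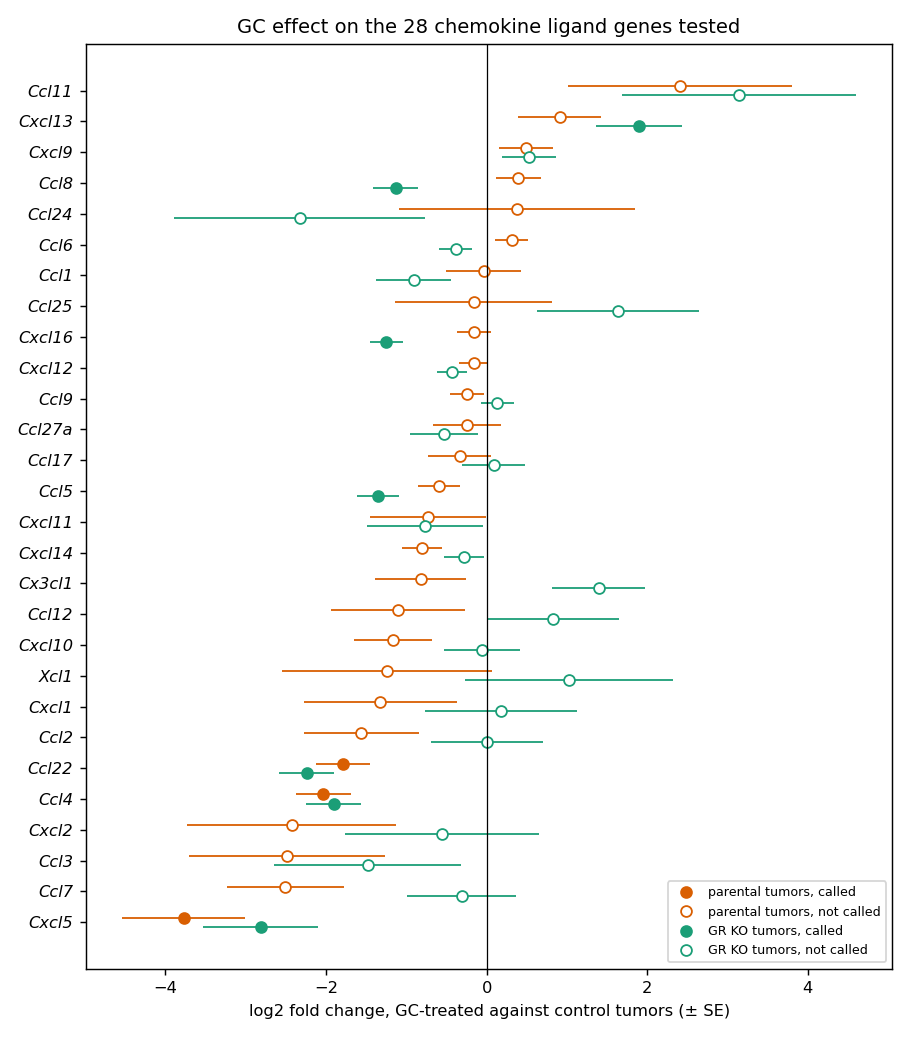
Log2 fold change of GC-treated against control tumors (linear axis, bars are ± SE, 5 tumors per group) for the 28 tested ligands in parental (orange) and GR KO (green) tumors, with filled points for DEGs. *Ccl22*, *Ccl4* and *Cxcl5* are filled in both genotypes, at -1.79 and -2.24, -2.03 and -1.91, and -3.77 and -2.81.

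The Ccr4 ligands *Ccl22* and *Ccl17* attract regulatory T cells and T helper cells and are typically made by dendritic cells and macrophages. *Ccl22* was at 30.9, 14.96, 20.4, 21.0 and 13.1 CPM in the parental control tumors and 6.27, 6.25, 3.64, 8.71 and 4.09 CPM in the GC-treated parental tumors. All 5 GC-treated tumors lay below all 5 control tumors, and *Ccl22* fell (log2 fold change -1.79 with an SE of 0.33, adjusted p = 0.00744 by edgeR; exact permutation p = 0.00794). GR KO tumors had 14.5, 14.998, 10.1, 23.6 and 20.9 CPM under control and 1.72, 3.19, 5.00, 4.65 and 2.80 CPM under GC. Again no GC-treated tumor reached the lowest control tumor, and the fall was -2.24 on the log2 scale (SE 0.34, adjusted p = 0.000994 by edgeR; exact permutation p = 0.00794). The difference of the genotypes' responses was 0.45 on the log2 scale with an SE of 0.46, which did not pass (adjusted p = 0.609 by edgeR). Mean levels were 20.1 ± 6.95 (SD, n = 5) and 5.79 ± 2.03 CPM (SD, n = 5) in parental, and 16.8 ± 5.39 and 3.47 ± 1.35 CPM (SD, n = 5 each) in GR KO tumors.

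*Ccl17*, which binds the same receptor, did not follow this pattern. It was at 121, 118, 72.2, 69.8 and 44.3 CPM in parental control and 89.7, 55.5, 54.3, 67.3 and 69.5 CPM in GC-treated parental tumors. In GR KO tumors it was at 52.5, 35.4, 44.9, 179.7 and 53.4 CPM under control and 56.6, 92.9, 143, 26.3 and 56.9 CPM under GC. The groups overlapped in both genotypes, with GR KO control tumor 4 far above its group, and neither difference passed (log2 -0.34 with an SE of 0.39, adjusted p = 0.756, and log2 0.09 with an SE of 0.39, adjusted p = 0.919, both by edgeR). *Ccl17* exceeded *Ccl22* in all 20 tumors. *Ccl22*, *Cx3cl1* and *Ccl17* are neighbors on chromosome 8 of GRCm38, at chr8:94745590-94751699, chr8:94772009-94782427 and chr8:94810453-94812036, all on the plus strand. The summed level of 5 dendritic cell genes (*Flt3*, *Clec9a*, *Xcr1*, *Cd209a* and *Ccr7*, the most abundant being *Ccr7*) was 13.6, 11.7, 16.4, 21.3 and 14.1 CPM in parental control, 10.2, 4.08, 4.18, 2.17 and 4.66 CPM in GC-treated parental, 4.11, 8.29, 12.1, 31.7 and 5.55 CPM in GR KO control and 7.22, 6.44, 7.46, 2.79 and 9.95 CPM in GC-treated GR KO tumors. The sums of all 5 GC-treated parental tumors lay below those of all 5 parental control tumors, and the sums overlapped in GR KO tumors. None of the 4 of these genes that were tested was a DEG of GC treatment in either genotype, and none was at 0 in all tumors. Their part in the fall of *Ccl22* was not tested.

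**Figure D3:**
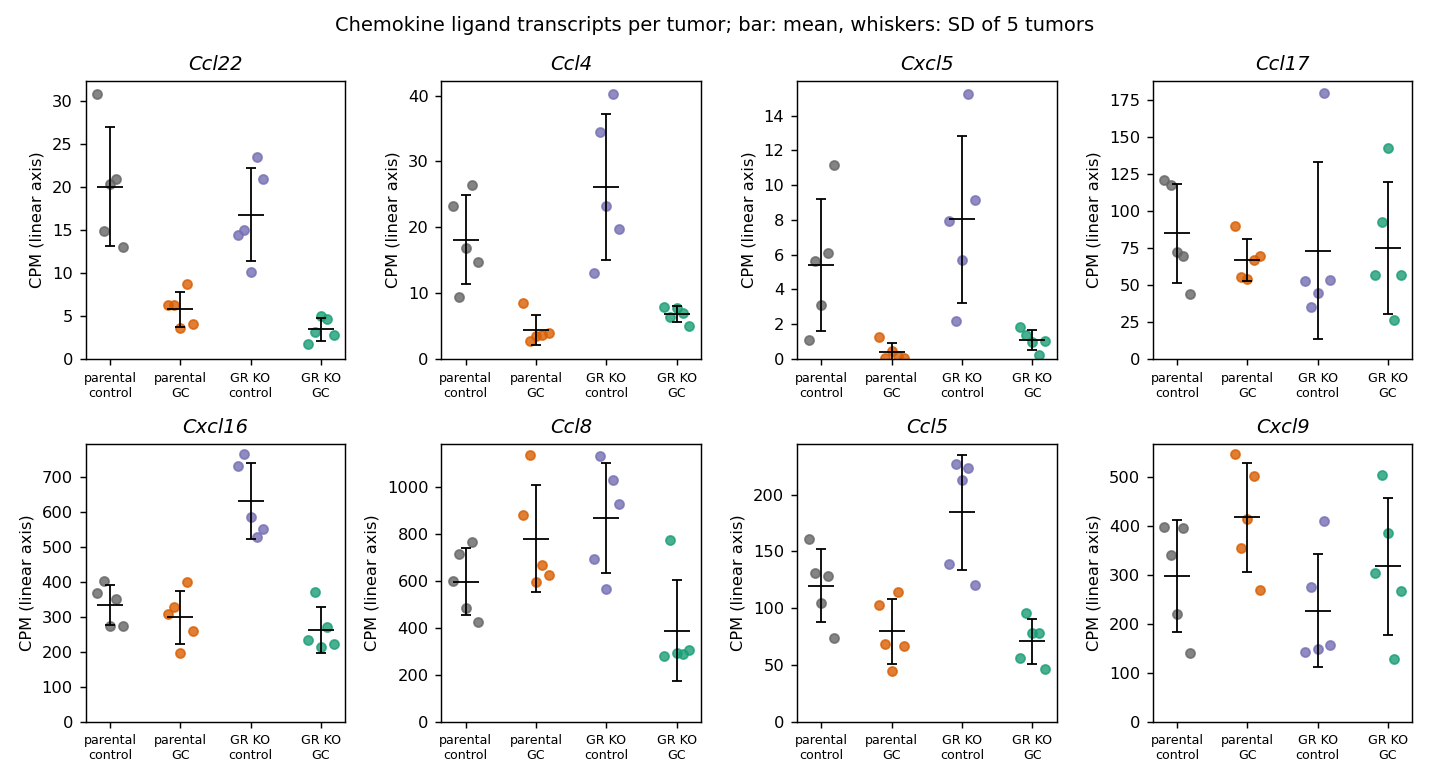
CPM (linear axis) of 8 ligands in each of the 20 tumors, 5 points per group, with the mean as a horizontal bar and the SD as whiskers. GC-treated tumors lie below all control tumors of their genotype for *Ccl22* and *Ccl4*, and in GR KO tumors also for *Cxcl5*, *Cxcl16* and *Ccl5*.

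Among the inflammatory CC ligands, which attract monocytes, T cells and NK cells, *Ccl4* fell with GC in both genotypes. *Ccl4* was at 23.2, 9.49, 16.8, 26.5 and 14.7 CPM in parental control tumors and 8.45, 2.77, 3.46, 3.70 and 3.92 CPM under GC. The GC-treated tumors lay below the control tumors without overlap, the highest being GC-treated tumor 1 (log2 fold change -2.03 with an SE of 0.34, adjusted p = 0.00355 by edgeR; exact permutation p = 0.00794). Levels of *Ccl4* in GR KO tumors were 13.1, 34.5, 23.2, 40.3 and 19.8 CPM under control and 7.88, 6.44, 7.77, 6.97 and 4.96 CPM under GC. These groups did not overlap either, and the fall was -1.91 on the log2 scale (SE 0.34, adjusted p = 0.00288 by edgeR; exact permutation p = 0.00794). The difference between genotypes was -0.13 with an SE of 0.46 (adjusted p = 0.905 by edgeR), and its sign turned without parental control tumor 4 (0.0562) or GR KO control tumor 1 (0.0409). *Ccl3*, its neighbor on chromosome 11, was low: 0.126, 1.65, 2.06, 1.69 and 3.32 CPM in parental control tumors and 0.467, 0.756, 0, 0 and 0.341 CPM under GC, with overlapping groups (log2 -2.49, SE 1.22, adjusted p = 0.361 by edgeR).

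*Ccl5*, a T cell and NK cell product that also attracts these cells, was at 139, 227, 213, 223 and 120.5 CPM in GR KO control tumors and 56.1, 96.1, 77.9, 77.8 and 46.3 CPM in GC-treated GR KO tumors. All GC-treated tumors were lower than all control tumors, and *Ccl5* fell (log2 fold change -1.35 with an SE of 0.26, adjusted p = 0.00533 by edgeR; exact permutation p = 0.00794). In parental tumors it was at 161, 131, 105, 129 and 74.0 CPM under control and 103, 68.7, 44.8, 114 and 66.5 CPM under GC, where the groups overlapped and the difference did not pass (log2 -0.59, SE 0.26, adjusted p = 0.305 by edgeR). The genotypes' responses were not shown to differ (log2 0.76, SE 0.37, adjusted p = 0.247 by edgeR). The summed level of 6 T cell genes was 68.4, 98.7, 68.5, 127 and 54.4 CPM in GR KO control and 40.9, 63.3, 50.5, 36.8 and 28.3 CPM in GC-treated GR KO tumors, and 1 of the 5 tested, *Cd3d*, the most abundant, fell (log2 -1.26, adjusted p = 0.0264 by edgeR), while *Trac* was at 0 in all tumors. The *Cd3d* call was lost without GR KO control tumor 1 or 2 (adjusted p = 0.0577 and 0.0813 by edgeR) or GC-treated tumor 1, 3 or 5 (adjusted p = 0.0697, 0.0634 and 0.0758 by edgeR). The 3 NK cell genes, led by *Gzma*, summed to 12.7, 21.4, 23.6, 35.1 and 21.4 CPM and 17.6, 16.9, 16.1, 5.99 and 9.39 CPM in the same groups with no DEG by GC. Their part in the fall of *Ccl5* was not tested. *Ccl6* and *Ccl9*, myeloid ligands of Ccr1, were not DEGs of GC in either genotype: *Ccl6* ranged from 125 to 301 CPM and *Ccl9* from 76.7 to 166 CPM over the 20 tumors.

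The neutrophil attractants that act on Cxcr2 were low throughout, and *Cxcl5* reached the highest level of them in a single tumor (15.2 CPM in GR KO control tumor 4). *Cxcl5* was at 1.07, 5.62, 3.12, 6.09 and 11.2 CPM in parental control tumors and 1.24, 0.0504, 0.444, 0.192 and 0.0568 CPM in GC-treated parental tumors. GC-treated tumor 1 lay above control tumor 1, and the other 4 GC-treated tumors lay below all control tumors, so the groups overlapped by this pair only while *Cxcl5* fell (log2 fold change -3.77 with an SE of 0.76, adjusted p = 0.0136 by edgeR; exact permutation p = 0.0159). The call was lost without parental control tumor 5 (adjusted p = 0.0626 by edgeR) or GC-treated parental tumor 4 (adjusted p = 0.0552 by edgeR), and the change was -4.79 without GC-treated tumor 1. *Cxcl5* in GR KO tumors was at 7.94, 2.16, 5.69, 15.2 and 9.15 CPM under control and 1.85, 1.38, 0.983, 0.258 and 1.03 CPM under GC. These groups did not overlap, and the fall was -2.81 on the log2 scale (SE 0.72, adjusted p = 0.0222 by edgeR; exact permutation p = 0.00794), a call lost without GC-treated GR KO tumor 3 (adjusted p = 0.0686 by edgeR) or 5 (adjusted p = 0.0613 by edgeR). The difference between genotypes did not pass (log2 -0.96, SE 0.97, adjusted p = 0.605 by edgeR).

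*Cxcl1* and *Cxcl2* reached at most 5.95 and 2.09 CPM in any tumor and were not DEGs of GC in either genotype. *Cxcl3* was at 0 in all libraries and *Cxcl15* had 3 counts over all tumors. The neutrophil list (*S100a8*, *S100a9*, *Csf3r*, *Cxcr2* and *Retnlg*, the most abundant being *S100a8*) summed to 22.5, 68.1, 239, 33.1 and 1235 CPM in parental control and 14.8, 9.73, 11.2, 22.0 and 38.6 CPM in GC-treated parental tumors. It summed to 423, 768, 264, 188 and 1014 CPM in GR KO control and 96.4, 49.1, 228, 196 and 129 CPM in GC-treated GR KO tumors. *S100a8* and *S100a9*, 2 of the 5, fell with GC in parental tumors (log2 -3.96, adjusted p = 0.0437, and log2 -5.03, adjusted p = 0.0109, by edgeR), none of the 5 passed in GR KO tumors, and none was at 0 in all tumors. The *S100a8* call was lost without parental control tumor 3 or 5 (adjusted p = 0.0783 and 0.316 by edgeR) or GC-treated tumor 1, 2, 3 or 4 (adjusted p = 0.0800, 0.134, 0.0957 and 0.0903 by edgeR), and the *S100a9* call without parental control tumor 5 (adjusted p = 0.0657 by edgeR). With only the groups compared in the fit both calls were lost (adjusted p = 0.116 and 0.0543 by edgeR). Parental control tumor 5 held the highest sum of these genes and the highest *Cxcl5* of its group. The part of neutrophil content in the fall of *Cxcl5* was not tested.

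Of *Ccl2*, *Ccl7*, *Ccl8* and *Ccl12*, grouped here by a list that names them monocyte attractants, *Ccl8* was a DEG in GR KO tumors. The receptor and target cells of *Ccl8* were not tested. It was at 693, 1129.9, 563, 1027 and 924 CPM under control and 278, 772, 293, 289 and 304 CPM under GC. GC-treated tumor 2 lay among the control tumors and the other 4 lay below all of them, and *Ccl8* fell (log2 fold change -1.13 with an SE of 0.28, adjusted p = 0.0205 by edgeR; exact permutation p = 0.0238). The call was lost without GR KO control tumor 2 (adjusted p = 0.0610 by edgeR) and without GC-treated tumor 1, 3 or 5 (adjusted p = 0.0569, 0.0680 and 0.0613 by edgeR), and with only the groups compared in the fit (adjusted p = 0.0571 by edgeR). In parental tumors *Ccl8* was at 597, 714, 485, 762 and 424 CPM under control and 878, 1134, 594, 665 and 624 CPM under GC. The groups overlapped and the difference did not pass (log2 0.39, SE 0.28, adjusted p = 0.555 by edgeR). The difference of the genotypes' responses was 1.52 on the log2 scale (SE 0.40), with an adjusted p of 0.0836 by edgeR and 0.00986 by DESeq2. Under edgeR this difference passed without GR KO control tumor 4 (adjusted p = 0.0332) or without GC-treated GR KO tumor 2 (adjusted p = 0.0172). Between GC-treated tumors *Ccl8* was at log2 -0.996 in GR KO against parental (SE 0.28, adjusted p = 0.119 by edgeR, 0.0229 by DESeq2), and without GC-treated GR KO tumor 2 it was -1.40 (adjusted p = 0.00692 by edgeR).

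*Ccl7* was at 8.27, 4.89, 21.5, 18.6 and 31.2 CPM in parental control and 6.89, 0.907, 4.84, 1.15 and 1.36 CPM in GC-treated parental tumors. GC-treated tumor 1 lay above control tumor 2 and the other 4 lay below all control tumors, and the difference missed the threshold by edgeR (log2 -2.51, SE 0.72, adjusted p = 0.112; exact permutation p = 0.0159) and passed it by DESeq2 (adjusted p = 0.0361). In GR KO tumors it was at 4.55, 7.59, 10.2, 39.9 and 5.12 CPM under control and 16.7, 1.92, 11.9, 2.38 and 18.7 CPM under GC. These groups overlapped broadly (log2 -0.31, SE 0.68, adjusted p = 0.817 by edgeR), and without GR KO control tumor 4, the highest, the sign turned (0.62). The difference between genotypes was -2.19 (SE 0.98, adjusted p = 0.214 by edgeR) and passed without that tumor (-3.12, adjusted p = 0.0430 by edgeR). *Ccl2*, next to *Ccl7* on chromosome 11, was at 2.33, 4.94, 10.3, 12.5 and 13.0 CPM in parental control and 7.10, 0.554, 4.18, 1.35 and 1.65 CPM in GC-treated parental tumors, with overlap and no call (log2 -1.56, SE 0.72, adjusted p = 0.323 by edgeR). *Ccl2* in GR KO tumors stood at 3.39, 1.87, 8.13, 27.2 and 4.88 CPM under control and 15.1, 1.76, 7.01, 3.15 and 16.3 CPM under GC, and *Ccl12* ranged from 0.144 to 9.78 CPM over all tumors; neither was called. The monocyte genes *Ly6c2* and *Ccr2*, with *Ly6c2* the more abundant, summed to 287, 238, 94.5, 263 and 78.7 CPM in parental control, 172, 95.5, 58.7, 156 and 70.4 CPM in GC-treated parental, 159, 278, 184, 416 and 258 CPM in GR KO control and 136, 256, 205, 74.3 and 125 CPM in GC-treated GR KO tumors, with neither a DEG of GC. The macrophage list summed to 8708, 7488, 5085, 6461 and 6214 CPM in GR KO control and 4632, 7317, 4160.2, 4529.7 and 3859 CPM in GC-treated GR KO tumors, led by *C1qa*, and 1 of 6 genes, *Mrc1*, rose (log2 1.20, adjusted p = 0.0267 by edgeR), a call lost without GR KO control tumor 1, 2 or 3 (adjusted p = 0.0637, 0.0527 and 0.0580 by edgeR) or GC-treated tumor 1, 3 or 5 (adjusted p = 0.0696, 0.0679 and 0.0873 by edgeR), and with only the groups compared in the fit (adjusted p = 0.0767 by edgeR). Their part in the values of *Ccl8* was not tested.

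The transmembrane ligand *Cxcl16*, which is made by macrophages and dendritic cells and binds Cxcr6 on T cells, was the 1 ligand that edgeR called between the genotypes under control cream. *Cxcl16* was at 368, 401, 275, 351 and 275 CPM in parental control tumors and 729.7, 766, 586, 527 and 551 CPM in GR KO control tumors. Every GR KO tumor was above every parental tumor (log2 fold change 0.91 with an SE of 0.21, adjusted p = 0.0288 by edgeR; exact permutation p = 0.00794). The call was lost at a minimum fold of 2, and without parental control tumor 3, 4 or 5 (adjusted p = 0.0765, 0.0607 and 0.0572 by edgeR) or GR KO control tumor 1 or 2 (adjusted p = 0.0754 and 0.0783 by edgeR). Under GC *Cxcl16* was at 309, 326, 195, 400.1 and 259 CPM in parental and 233, 372, 213, 269.9 and 221 CPM in GR KO tumors. It fell with GC in GR KO tumors without overlap (log2 fold change -1.25 with an SE of 0.21, adjusted p = 0.00210 by edgeR; exact permutation p = 0.00794), and the parental groups overlapped (log2 -0.16, SE 0.21, adjusted p = 0.787 by edgeR). The difference of the genotypes' responses was 1.09 (SE 0.29), with an adjusted p of 0.0853 by edgeR, 0.0143 by DESeq2 and, without GR KO control tumor 4, 0.0272 by edgeR. Its receptor gene *Cxcr6* also fell with GC in GR KO tumors (log2 -1.45, SE 0.36, adjusted p = 0.0205 by edgeR), a call lost with only the groups compared in the fit (adjusted p = 0.0533 by edgeR) and without GR KO control tumor 1 or 2 (adjusted p = 0.0520 and 0.0576 by edgeR) or GC-treated tumor 5 (adjusted p = 0.0534 by edgeR). Single genes of 4 marker lists were also called between the genotypes under control cream. Higher in GR KO tumors were 1 of 3 NK cell genes (*Ncr1*, adjusted p = 0.0376 by edgeR) and 1 of 4 endothelial genes (*Kdr*, adjusted p = 0.0472 by edgeR). Lower were 1 of 5 fibroblast genes (*Col3a1*, adjusted p = 0.0252 by edgeR) and 1 of 4 keratinocyte genes (*Krt1*, adjusted p = 0.0422 by edgeR). The other genes of these lists were not called, and no list was tested as a whole. The calls of *Ncr1*, *Kdr*, *Col3a1* and *Krt1* lay near the threshold, and their values with single libraries left out are not given. The keratinocyte genes did not move together: *Krt14*, the most abundant, stood at log2 1.17 (adjusted p = 0.1002 by edgeR), and the list sums were 874, 786, 1212, 789 and 2694 CPM in parental and 2828, 3524, 2894, 1348 and 1746 CPM in GR KO control tumors. No macrophage gene was called there, with list sums of 4952, 5021, 3777, 4424 and 3308 CPM in parental and 8708, 7488, 5085, 6461 and 6214 CPM in GR KO control tumors. Their part in the level of *Cxcl16* was not tested. An exon of *Cxcl16* overlaps *Zmynd15* on the opposite strand, and since the study names no strand option for the counting and its stated defaults would count both strands, a contribution of *Zmynd15* reads is possible and was not tested.

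*Cx3cl1*, the membrane-bound ligand of Cx3cr1, was at 23.2, 23.4, 63.9, 38.3 and 73.8 CPM in parental control and 7.58, 4.26, 17.0, 25.7 and 6.65 CPM in GR KO control tumors. Only GR KO tumor 4 overlapped the parental range, and the difference missed the threshold by edgeR (log2 -1.91, SE 0.59, adjusted p = 0.0806; exact permutation p = 0.0238) and passed by DESeq2 (adjusted p = 0.0483) and by edgeR without that tumor (log2 -2.34, adjusted p = 0.0221). Under GC it was at 38.67, 5.75, 44.8, 9.29 and 29.8 CPM in parental and 38.2, 11.7, 32.3, 7.59 and 64.7 CPM in GR KO tumors. The treatment groups overlapped in both genotypes, with log2 -0.82 (SE 0.57, adjusted p = 0.540 by edgeR) in parental and 1.40 (SE 0.58, adjusted p = 0.138 by edgeR) in GR KO tumors. Without GR KO control tumor 4 the latter was 1.84 (adjusted p = 0.0458 by edgeR), and the difference between genotypes went from -2.22 (SE 0.81, adjusted p = 0.145 by edgeR) to -2.65 (adjusted p = 0.0484 by edgeR). With that tumor left out, 4 ligands passed the test of the difference (*Ccl7*, *Ccl8*, *Cx3cl1* and *Cxcl16*) and 3 the comparison of control tumors, where all DEGs numbered 1284 and 1762. *Ccl25* was at 2.33, 1.16, 1.01, 2.12 and 0.541 CPM in parental control, 0, 0, 0.474, 1.71 and 0 CPM in GR KO control and 1.10, 2.18, 1.25, 0.878 and 1.25 CPM in GC-treated GR KO tumors, so these groups overlapped. Between control tumors it went from log2 -1.71 (SE 1.01, adjusted p = 0.346 by edgeR) to -3.54 without GR KO control tumor 4 (adjusted p = 0.0420 by edgeR), and with GC in GR KO tumors from 1.63 (SE 1.01, adjusted p = 0.328 by edgeR) to 3.46 (adjusted p = 0.0379 by edgeR).

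The interferon-inducible ligands of Cxcr3, which attract activated T cells and NK cells, were not DEGs in any tumor comparison by edgeR. *Cxcl9* was at 397, 341, 219, 394 and 139.6 CPM in parental control tumors and 546, 355, 414, 501 and 269 CPM under GC. Its GR KO levels were 143, 274, 149, 409.7 and 157 CPM under control and 304, 504, 386, 128 and 267 CPM under GC. The treatment groups overlapped in both genotypes, with log2 0.49 (SE 0.33, adjusted p = 0.537 by edgeR) and 0.53 (SE 0.33, adjusted p = 0.344 by edgeR). *Cxcl10* was at 32.5, 45.6, 45.0, 50.8 and 40.3 CPM in parental control and 43.8, 4.64, 21.2, 12.5 and 14.5 CPM in GC-treated parental tumors. GC-treated tumor 1 lay within the control range and the other 4 lay below it, without passing (log2 -1.16, SE 0.48, adjusted p = 0.276 by edgeR; exact permutation p = 0.0238). In GR KO tumors it was at 21.4, 30.4, 60.9, 146 and 33.2 CPM under control and 79.1, 47.2, 55.7, 16.4 and 70.6 CPM under GC, and between GC-treated tumors of the genotypes it stood at log2 1.51 (SE 0.49, adjusted p = 0.194 by edgeR and 0.0494 by DESeq2). *Cxcl11*, annotated as a polymorphic pseudogene, ranged from 0.144 to 19.4 CPM. *Cxcl10* and *Cxcl11* each share an exon with a gene on the opposite strand (*Art3* and *Gm2673*), so their counts are uncertain to that extent.

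Of the ligands that organize lymphoid tissue, *Cxcl13*, which attracts B cells through Cxcr5, was measurable. It was at 2.16, 1.69, 3.59, 5.06 and 1.40 CPM in GR KO control tumors and 9.42, 22.5, 8.67, 2.63 and 7.41 CPM in GC-treated GR KO tumors. GC-treated tumor 4 lay among the control tumors and the other 4 lay above all of them, and *Cxcl13* rose (log2 fold change 1.90 with an SE of 0.53, adjusted p = 0.0343 by edgeR; exact permutation p = 0.0238). This call was lost without control tumor 1, 2 or 5 (adjusted p = 0.0816, 0.0874 and 0.0717 by edgeR) or GC-treated tumor 1, 2, 3 or 5 (adjusted p = 0.0631, 0.101, 0.0698 and 0.0614 by edgeR), and with only the groups compared in the fit (adjusted p = 0.0675 by edgeR). In parental tumors *Cxcl13* was at 2.78, 4.36, 4.27, 4.30 and 5.44 CPM under control and 8.92, 2.07, 5.46, 4.72 and 19.0 CPM under GC, with overlap and no call (log2 0.91, SE 0.52, adjusted p = 0.438 by edgeR), and the genotypes' responses were not shown to differ (log2 -0.99, SE 0.73, adjusted p = 0.456 by edgeR). The 4 B cell genes, led by *Cd79b*, summed to 11.5, 5.31, 8.88, 9.92 and 6.95 CPM in GR KO control and 1.76, 7.13, 3.217, 2.43 and 4.61 CPM in GC-treated GR KO tumors, with no DEG among the 1 tested. *Ccl19* had 3 counts over all tumors, and *Ccl21a*, *Ccl21b* and *Ccl21c* had none; these near-identical copies, like *Ccl27a* and *Ccl27b*, can share reads, so their absence from the counts is uncertain.

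No stromal or skin ligand was a DEG of GC in tumors. *Cxcl12*, the stromal ligand of Cxcr4, ranged from 45.6 to 111 CPM over the 20 tumors, and the 5 GC-treated and 5 control tumors overlapped in both genotypes. *Cxcl14*, an epithelial and fibroblast ligand, was at 67.3, 60.2, 73.3, 88.3 and 51.7 CPM in parental control and 52.7, 20.8, 57.1, 30.8 and 35.1 CPM in GC-treated parental tumors. GC-treated tumors 1 and 3 lay above control tumor 5, so the groups overlapped, and the difference did not pass (log2 -0.80, SE 0.25, adjusted p = 0.142 by edgeR; exact permutation p = 0.0238). The skin ligand *Ccl27a*, whose exon overlaps *Il11ra1* on the opposite strand, ranged from 1.86 to 12.4 CPM. *Ccl1*, a ligand of Ccr8, ranged from 1.42 to 10.2 CPM and the Xcr1 ligand *Xcl1* from 0 to 1.75 CPM. The eosinophil attractants *Ccl11* and *Ccl24* stayed at or below 2.63 and 3.10 CPM. None of these was a DEG of GC in tumors either, and exons of *Xcl1* overlap *Gm20743* on the opposite strand. The fibroblast list, led by *Col3a1*, summed to 3098, 3219, 3595, 5388 and 4096 CPM in GR KO control and 6584, 6099.5, 7208, 5661 and 6582 CPM in GC-treated GR KO tumors, where 3 of 5 genes rose; endothelial genes summed to 92.9, 79.4, 101, 105 and 82.3 CPM and 49.2, 52.1, 46.5, 42.1 and 46.1 CPM, where 1 of 4, *Kdr*, fell (log2 -1.32, adjusted p = 0.00567 by edgeR). Keratinocyte genes summed to 2828, 3524, 2894, 1348 and 1746 CPM and 681, 860.2, 1297, 1476 and 1288 CPM, where 2 of 4 rose and 1 fell. The 3 muscle genes, led by *Acta1*, summed to 379.5, 332, 527, 474 and 221 CPM and 226, 283, 286, 183 and 199 CPM, where 1 of 3, *Myh4*, fell; none of these fibroblast, endothelial, keratinocyte and muscle genes was called with GC in parental tumors. The part of these cell types in the ligand results was not tested. No mast cell gene (3 tested, led by *Mcpt4*), no lymphatic endothelial gene (2 tested, led by *Lyve1*) and not *Ptprc* was called with GC in either genotype.

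The culture comparisons asked what GC did to ligands in the cancer cells themselves. Among the 10 ligands tested in cultures, *Ccl9* and *Ccl5* had the smallest p in parental cells. *Ccl9* was at 12.7, 12.2 and 9.52 CPM in DMSO and 21.5 and 19.1 CPM in GC, and *Ccl5* at 4.45, 3.51 and 3.71 CPM and 1.13 and 1.85 CPM. Both GC cultures lay above all DMSO cultures for *Ccl9* and below them for *Ccl5*, without passing edgeR's threshold (*Ccl9* log2 0.82, SE 0.21, adjusted p = 0.158; *Ccl5* log2 -1.37, SE 0.47, adjusted p = 0.360). With 3 cultures against 2 an exact permutation test cannot reach 0.05. In parental cells edgeR called 0 of the 10 ligands (0.878% of all genes), 2 had an unadjusted p under 0.05 (8.48% of all genes), and DESeq2 called 1, *Ccl9* (adjusted p = 0.0347; 2% of all genes). *Cxcl14* came next, at 5.32, 3.14 and 4.67 CPM in DMSO and 2.76 and 1.90 CPM in GC (log2 -0.92, SE 0.51, adjusted p = 0.675 by edgeR).

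In GR KO cells neither edgeR nor DESeq2 called any of the 10 ligands (0% of all genes by either tool), and 0 had an unadjusted p under 0.05 (1.89% of all genes). *Ccl9* was at 3.45, 3.43 and 2.90 CPM in DMSO and 3.39, 3.35 and 2.75 CPM in GC, and *Ccl5* at 0.377, 0.392 and 0.382 CPM and 0.351, 0.283 and 0.687 CPM, so these groups overlapped. The 3 smallest p belonged to *Ccl2* (log2 -1.01, SE 0.86), *Cx3cl1* (log2 -0.43, SE 0.51) and *Ccl7* (log2 -1.51, SE 1.81), each with an adjusted p of 0.976 by edgeR. The test of the difference between genotypes called 0 of 10 by edgeR (0.295% of all genes), with 2 at an unadjusted p under 0.05 (8.58% of all genes), and 0 by DESeq2 (1.02% of all genes); it gave 0.83 for *Ccl9* (SE 0.30, adjusted p = 0.492 by edgeR), -1.58 for *Ccl5* (SE 0.67, adjusted p = 0.563 by edgeR) and 0.38 for *Cxcl12* (SE 0.34, adjusted p = 0.637 by edgeR). *Ccl22* and *Ccl4*, which fell in both kinds of tumor, could not be compared in cultures: *Ccl22* was at 0 in all 11 and *Ccl4* had 1 count in all.

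The GR KO clone differed from the parental line in DMSO without GC. *Ccl5*, *Ccl9* and *Cxcl14* were lower in GR KO cells, 3 of the 10 ligands tested beside 6.04% of all genes called lower. *Ccl5* and *Cxcl14* entered the test through the parental cultures. The count therefore describes which ligands were tested, and nothing is read from it. *Ccl5* was at 4.45, 3.51 and 3.71 CPM in parental and 0.377, 0.392 and 0.382 CPM in GR KO DMSO cultures (log2 fold change -3.33 with an SE of 0.46, adjusted p = 0.000966 by edgeR). *Ccl9* was at 12.7, 12.2 and 9.52 CPM and 3.45, 3.43 and 2.90 CPM in the same cultures (log2 fold change -1.82 with an SE of 0.21, adjusted p = 0.000275 by edgeR). *Cxcl14* was at 5.32, 3.14 and 4.67 CPM in parental cells and at 0 in all 6 GR KO cultures, at least 83.5-fold lower in GR KO DMSO cultures against the floor of 3 counts over the group (adjusted p = 0.000748 by edgeR). Lower in GR KO cells was the outcome open to *Ccl5* and *Cxcl14*, so nothing is read from their p or their calls. None of these groups overlapped, and the same 3 ligands were called with every library left out in turn; the smallest exact permutation p for 3 against 3 is 0.1. Since the GR KO line is 1 clone, an effect of the edit and a property of the clone cannot be told apart. Other listed genes were lower in the clone as well: 3 of 4 fibroblast genes tested and the melanocyte-lineage gene *Mitf*. In control tumors the same ligands were at 119.8 ± 32.3 and 185 ± 50.7 CPM (*Ccl5*), 117 ± 18.4 and 106 ± 36.8 CPM (*Ccl9*) and 68.2 ± 13.9 and 73.2 ± 27.7 CPM (*Cxcl14*; mean ± SD, n = 5 in parental and GR KO), and none was a DEG there.

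The receptors and known regulators of these ligands were read from lists. Of 19 chemokine receptor genes, 17 were tested in tumors: none was a DEG of GC in parental tumors and 1, *Cxcr6*, in GR KO tumors. *Cx3cr1* was the most abundant receptor in tumors and *Cxcr6* in cultures, and 8 of the 19 were at 0 in all cultures. None of the 4 scavenging receptors in the table, led by *Ackr3*, was called with GC in either genotype. The platelet ligands *Pf4* and *Ppbp*, outside the name pattern, summed to between 124 and 302 CPM per tumor and were not called with GC. Of 10 upstream regulators, 9 were tested in tumors and 2 fell with GC in both genotypes, the cytokine genes *Tnf* and *Il1b*. *Tnf* was at 11.7, 9.44, 14.89, 9.90 and 11.7 CPM in parental control, 3.58, 3.43, 2.35, 2.89 and 2.33 CPM in GC-treated parental, 14.6, 20.1, 14.98, 18.3 and 13.4 CPM in GR KO control and 2.16, 1.97, 3.62, 2.01 and 0.388 CPM in GC-treated GR KO tumors. *Tnf* fell in parental tumors (log2 -1.99, adjusted p = 0.00645 by edgeR) and in GR KO tumors (log2 -2.98, adjusted p = 0.000180 by edgeR). *Il1b* was at 17.98, 65.8, 45.8, 28.4 and 48.4 CPM, 10.4, 2.42, 5.11, 4.23 and 3.98 CPM, 6.35, 29.1, 40.7, 48.0 and 30.1 CPM and 5.68, 2.55, 8.85, 7.44 and 6.08 CPM in the same order of groups. *Il1b* fell in parental tumors (log2 -2.99, adjusted p = 0.00156 by edgeR) and in GR KO tumors (log2 -2.29, adjusted p = 0.00549 by edgeR). Their part in the ligand results was not tested, and neither response was shown to differ between genotypes (adjusted p = 0.269 and 0.533 by edgeR).

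Most ligands lie in clusters. Of 40 identifiers placed on GRCm38, 12 are on chromosome 11, 11 on chromosome 5, 7 on chromosome 4 and 4 on chromosome 8. The 3 DEGs shared by both kinds of tumor are on different chromosomes: *Ccl22* (ENSMUSG00000031779) at chr8:94745590-94751699, *Ccl4* (ENSMUSG00000018930) at chr11:83662584-83664683 and *Cxcl5* (ENSMUSG00000029371) at chr5:90759360-90761624. Of the other DEGs in GR KO tumors, *Ccl5* (ENSMUSG00000035042) is at chr11:83525778-83530518, *Ccl8* (ENSMUSG00000009185) at chr11:82115185-82116799, *Cxcl16* (ENSMUSG00000018920) at chr11:70453983-70459984 and *Cxcl13* (ENSMUSG00000023078) at chr5:95956951-95961068. On chromosome 11, *Ccl4* was called in both genotypes while *Ccl3*, its nearest neighbor in the list, was not.

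Upstream sequences were taken from RefSeq (GRCm38.p6), which held a promoter for 27 of the 41 symbols. The motifs searched, on both strands of the 250 bases before the transcript start, were a κB motif (GGGNNNTTCC), an interferon-stimulated response element (GAAANNGAAA) and GR element letters (ACANNNTGT). Of all 32851 promoters of this length, 4.65% held the κB letters, 2.98% the interferon letters and 5.84% the GR letters. Among the ligands, 7 held κB letters (*Ccl1*, *Ccl20*, *Ccl9*, *Cxcl1*, *Cxcl10*, *Cxcl2* and *Cxcl3*), 3 interferon letters (*Ccl19*, *Cxcl10* and *Cxcl14*) and 1 GR letters (*Cxcl1*). Sequences are shown for *Ccl22* and *Ccl17*, neighbors with the same receptor of which *Ccl22* fell with GC, and for the interferon ligands *Cxcl9* and *Cxcl10*; capitals mark the interferon motif and the κB motifs of *Cxcl10*, and the other 3 hold none. The *Ccl22* window, which ends at the RefSeq transcript start, overlaps the first bases of the GENCODE gene given above. A match of letters is a description, and the absence of one says only that these letters are not in this window.
Ccl22 promoter, RefSeq GRCm38.p6, chr8:94745434-94745683, plus strand: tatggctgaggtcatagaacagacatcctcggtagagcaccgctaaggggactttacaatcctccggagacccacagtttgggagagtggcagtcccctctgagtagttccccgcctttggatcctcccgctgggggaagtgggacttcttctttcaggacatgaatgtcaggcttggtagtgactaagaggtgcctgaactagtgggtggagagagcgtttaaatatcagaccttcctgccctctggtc
Ccl17 promoter, RefSeq GRCm38.p6, chr8:94810203-94810452, plus strand: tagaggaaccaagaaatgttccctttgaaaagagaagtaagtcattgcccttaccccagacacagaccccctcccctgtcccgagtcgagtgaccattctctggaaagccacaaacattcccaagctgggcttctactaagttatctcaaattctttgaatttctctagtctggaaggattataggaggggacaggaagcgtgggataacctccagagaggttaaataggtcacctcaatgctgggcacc
Cxcl9 promoter, RefSeq GRCm38.p6, chr5:92328080-92328329, minus strand: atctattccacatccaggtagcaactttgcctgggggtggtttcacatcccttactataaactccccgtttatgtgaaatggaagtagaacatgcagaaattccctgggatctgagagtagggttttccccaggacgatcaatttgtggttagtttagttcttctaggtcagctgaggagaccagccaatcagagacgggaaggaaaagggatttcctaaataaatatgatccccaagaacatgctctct
Cxcl10 promoter, RefSeq GRCm38.p6, chr5:92348890-92349139, minus strand: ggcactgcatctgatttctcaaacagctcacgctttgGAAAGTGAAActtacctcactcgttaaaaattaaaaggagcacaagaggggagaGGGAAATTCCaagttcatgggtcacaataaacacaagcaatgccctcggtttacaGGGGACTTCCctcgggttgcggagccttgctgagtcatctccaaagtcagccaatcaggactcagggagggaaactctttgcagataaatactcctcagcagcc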

How the data were processed

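RNA of 20 tumors and 11 cell cultures was sequenced from 3′ ends (QuantSeq). The authors deposited raw counts per gene, made with featureCounts after trimming (Trim Galore) and alignment (STAR) to the mouse genome (mm10), and used edgeR and DESeq2. No strand option of featureCounts is named; the study states that defaults were kept where nothing else is given, and the default counts both strands. From these counts CPM, fold changes and p-values were computed with edgeR 4.0.16 in R 4.3.3, in separate fits of 20 tumors, of 11 cultures and of all 31 libraries. Each fit had 1 mean per group, genes at 0.5 CPM or more in at least 3 libraries, TMM scaling and the quasi-likelihood F-test. The SE of a log2 fold change is its absolute value divided by the square root of F. Tables and exact permutation tests were made with Python 3.11.15 and pandas 2.3.3. Scripts were tested on simulated data with known changes. Replicate numbers follow the sample titles.

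The members and lists were chosen with earlier results of these data known. Ligands named with values were those called in any comparison, the 8 most abundant in tumors, those above 3 counts in at least 2 cultures, the 3 with the smallest p where none was called, and a list of 31 ligands; other named genes were chosen after their values were seen. Lists comprised 15 cell types, receptors, scavenging receptors, regulators, platelet ligands and GC controls. Some genes of these lists are counted but not reported here by name. Alternatives were DESeq2 1.42.0, edgeR given DESeq2's scaling, tests of all genes with a count, the filterByExpr filter, no minimum fold or a fold of 2, a replicate block, only the groups compared, each library left out in turn and, chosen after seeing the data, *Gm26924* left out. Gene positions are those of GENCODE M21 for identifiers found there.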

Additional observations from a re-analysis of the deposited data

Results flagged for a closer look

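In 112 combinations of a tested ligand and a tumor group, 6 tumors lay far from the other 4 of their group, by a gap above Dixon's critical value of 0.71 of the whole range. Chance flags about 1 in 20 groups, so 6 of 112 is about the number that chance gives. GR KO control tumor 4 was the highest of its group for *Ccl17*, at 179.7 CPM against 35.4 to 53.4 CPM, and for *Xcl1*, at 1.75 CPM against 0 to 0.339 CPM. GC-treated GR KO tumor 2 was the highest for *Ccl8*, at 772 CPM against 278 to 304 CPM. GC-treated GR KO tumor 3 was the highest for *Ccl24*, at 0.626 CPM against 0 to 0.132 CPM. GC-treated parental tumor 1 was the highest for *Ccl4*, at 8.45 CPM against 2.77 to 3.92 CPM, and GC-treated parental tumor 5 for *Ccl27a*, at 7.73 CPM against 4.61 to 5.24 CPM.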

How the results depend on the processing

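Of the values of single genes, 1105 of 1206 kept their direction and side of the threshold with a library left out, 84 lost a call, 10 gained one and 7 turned. Under the other settings 960 of 981 were the same, 10 lost a call, 11 gained one and 0 turned. Without single libraries the number of ligands called was 2 to 3 for GC in parental tumors (main analysis 3), 4 to 9 for GC in GR KO tumors (7), 0 to 4 for the difference between genotypes (0), 0 to 3 for the genotypes under control (1), 0 to 1 under GC (0), 0 in the 3 tests of GC in cultures, 3 for the genotypes in DMSO, 19 to 24 for parental tumors against cultures (25) and 22 to 25 for GR KO tumors against cultures (25). *Ccl4* in the difference between genotypes (-0.13) ranged from -0.474 to 0.0562 and turned without parental control tumor 4 (0.0562) or GR KO control tumor 1 (0.0409). *Ccl17* with GC in GR KO tumors (0.09) ranged from -0.272 to 0.701 and turned without control tumor 1, 2 or 3 (-0.00137, -0.0799 and -0.0387) or GC-treated tumor 3 (-0.272). *Ccl7* with GC in GR KO tumors (-0.31) ranged from -0.659 to 0.623 and turned without control tumor 4. The cause was not tested. The number of all genes called ranged from 60 to 178 for GC in parental tumors, 303 to 2411 in GR KO tumors, 0 to 1284 for the difference, 61 to 1762 under control, 40 to 114 under GC, 31 to 78 in parental cells, 0 in GR KO cells, 17 to 43 for the difference in cells and 594 to 916 in DMSO.

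DESeq2 called more genes: 376 with GC in parental tumors (edgeR 124), 1756 in GR KO tumors (1022), 784 for the difference (31), 1001 under control (358), 293 under GC (101), 251 in parental cells (110) and 128 for the difference in cells (37). Its ligand counts were 2 for the difference, 2 under control, 2 under GC and 1 in parental cells, where edgeR called 0, 1, 0 and 0. A minimum fold of 2 left 0 ligands under control and 583 genes with GC in GR KO tumors, 238 under control and 690 between genotypes in DMSO (1030 at 1.5). With only the groups compared, 391 genes and 5 ligands were called with GC in GR KO tumors (33.2% higher, against 42.2%; *Cxcl13* adjusted p = 0.0675 and *Ccl8* 0.0571 by edgeR), 159 genes under control and 59 in parental cells. The same setting called 23 parental and 22 GR KO ligands between tumors and cultures. The main fit called 25 in each line, beside 46.7% (parental) and 54.8% (GR KO) of all genes in either direction. The share of all genes under this setting is not given. *Ccl25* was among the GR KO ligands lost (adjusted p = 0.154 by edgeR). *S100a8*, *S100a9*, *Mrc1* and *Cxcr6* also lost their calls in tumors (adjusted p = 0.116, 0.0543, 0.0767 and 0.0533 by edgeR). Without a low-count filter 49 genes passed for the difference in tumors and 64 in cells, and the median log2 of all genes between tumors and cultures went from 0.37 to 0.14 (parental) and from 0.33 to 0.00 (GR KO). With only the groups compared these medians were 0.26 and 0.21. With log2(CPM + 0.1) the exact permutation p changed its side of 0.05 for 1 ligand, *Cxcl2* between GC-treated tumors (from 0.0635 to 0.0397), and 10 ligands in place of 13 passed the stricter detection in cultures.

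Samples share replicate numbers, but the labels do not say that a number marks a shared source. Deviations from group means of same-numbered tumors correlated at -0.54 to 0.41, with 16 of 30 pairs over 0.1, and 16 of 60 correlated best with their own number. Cultures gave -0.55 to 0.62, 7 of 15 and 10 of 30, so the numbers were not used as pairs. Taking that number as a block, ligand counts were 3 with GC in parental tumors (164 genes), 6 in GR KO tumors (without *Cxcl13*, adjusted p = 0.0731 by edgeR; 994 genes), 2 for the difference (*Ccl8*, adjusted p = 0.0187, and *Cxcl16*, 0.0473, by edgeR; 144 genes), 1 under control (363 genes), 1 under GC (*Ccl8*, adjusted p = 0.0145 by edgeR; 160 genes), 0 in the 3 tests of GC in cultures (63 genes in parental cells, 0 in GR KO cells and 27 for the difference) and 3 in DMSO (829 genes). *S100a8* in parental tumors had an adjusted p of 0.0624 by edgeR under the block.

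Counts limit the low ligands: with 3 counts corresponding to 0.108 to 0.216 CPM per library, a ligand below this cannot be told from 0.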
